A study of Homo sapiens with 4 samples.

Results

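Cytochrome P450 enzymes are heme proteins that insert oxygen into small lipophilic molecules. Of the 1176 genes in the deposited tables, 6 have a symbol made of CYP and a digit and form the set described here: CYP4F11, CYP27B1, CYP26A1, CYP27C1, CYP1A1 and CYP3A4. GENCODE 29 annotates 56 protein-coding genes with such a symbol, and the other P450 genes were not analysed here. The genes were measured by RNA sequencing of polyadenylated RNA from RCC4, a human clear cell renal carcinoma line that has lost functional VHL and therefore keeps its hypoxia-inducible factors even with ample oxygen. Both groups were infected with lentiviruses and collected on day 3: one carried a control hairpin (shControl, genotype label WT, n = 2), the other a hairpin against MIRE (shMIRE, genotype label MIRE knockdown, n = 2). RefSeq gives MIRE as a synonym of the long non-coding RNA gene SAP30-DT. That gene is not among the listed genes, so the knockdown could not be checked here. Both groups share the line, the virus and the serum-containing medium, and the labels do not say whether replicate libraries stem from independent infections. P-values therefore describe library-to-library spread that could be technical only.

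P450 enzymes fall into classes by substrate. Some make or clear hormones derived from vitamins A and D, some hydroxylate fatty acids and eicosanoids, some build sterols and steroids, and others oxidise drugs and pollutants. Enzymes in the endoplasmic reticulum receive electrons from P450 oxidoreductase, and mitochondrial ones from ferredoxin. In the kidney, proximal tubule cells are the classic site at which CYP27B1 activates vitamin D, and enzymes of the CYP4 family act there on fatty acids.

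The tables appear to have been filtered on a difference between the groups. The ratio of group means ended at about 2 both for the 463 genes higher in shMIRE and for the 713 genes lower in it. A P450 gene thus appears to be in the set because it differed, and neither its call nor the number of calls is independent evidence of a change. Values are whole numbers that look like read counts already scaled between libraries. They summed to between 2002994 and 2514039 per library over the listed genes. The total depth of the libraries is unknown, so no counting error is given, and zeros are reported as listed. Of 7 epithelial markers, 2 were listed, and they moved apart: the claudin gene CLDN1 had values of 2041 and 1871 in shControl and 4761 and 4922 in shMIRE, and the transcription factor gene ELF3 had 4790 and 5143, then 1618 and 1713. Of 6 markers of renal carcinoma, 0 were listed. The labelled cell type could not be checked further.

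In shMIRE cells the vitamin D activating enzyme gene CYP27B1 and the aryl hydrocarbon-inducible gene CYP1A1 were higher, by 2.10-fold and 3.62-fold. The fatty acid hydroxylase gene CYP4F11 was 2.17-fold lower. The retinoid enzyme genes CYP26A1 and CYP27C1 and the drug-metabolising gene CYP3A4 were low in shControl, with values of 3 to 12, and listed at 0 in both shMIRE libraries. With limma on log2(value + 1), called at an adjusted p under 0.05 over all listed genes, 2 of the 6 rose and 4 fell. Of all listed genes, 97.5% were called, 38.5% as higher and 59.0% as lower, so the members' share of calls is that of the tables as a whole. The groups did not overlap for 6 of 6 members, against 99.0% of all listed genes. The median log2 fold change was -1.95 for the members and -1.16 for all listed genes. The members' median includes 3 genes at 0 in shMIRE, whose fitted change depends on the pseudocount. No exact permutation test of 2 against 2 libraries can give a two-sided p below 0.333. In bulk RNA, fewer cells that express a gene and less RNA of it per cell cannot be told apart.

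**Figure D1:**
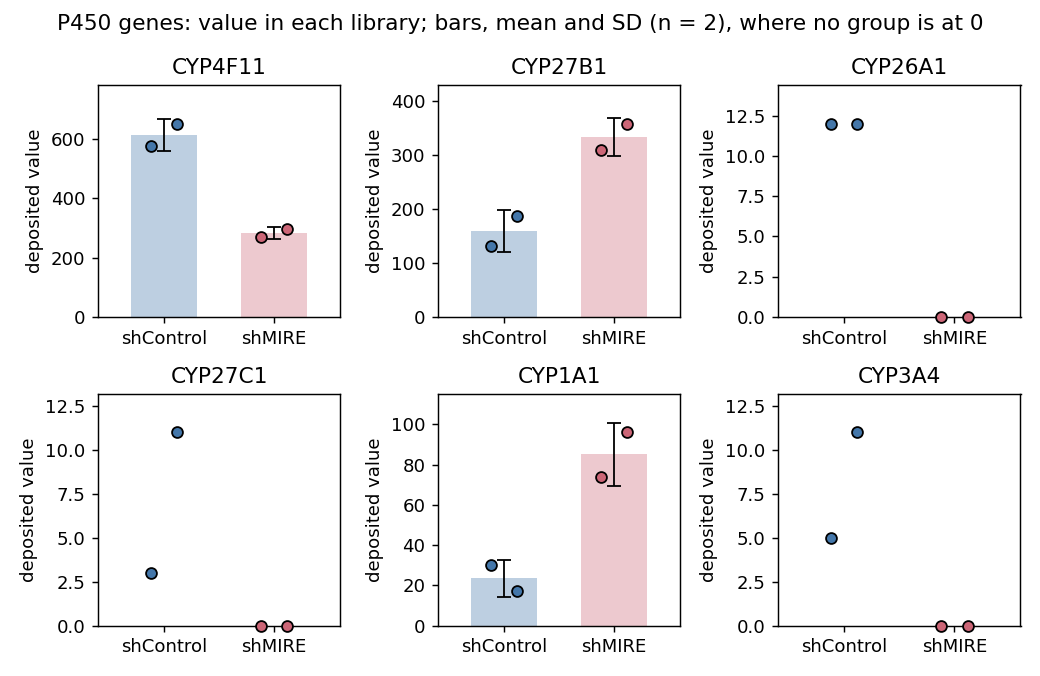
Deposited value (vertical axis, linear from 0) of each P450 gene in each library, with shControl in blue and shMIRE in red. Bars and whiskers give the mean and SD of 2 libraries, and are left out for the 3 genes listed at 0 in shMIRE. CYP27B1 and CYP1A1 lie higher in shMIRE, and the other 4 genes lie lower.

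By the 5 substrate classes used here, the set was spread over 3. Of 7 P450 genes for vitamins A and D, 3 were listed, 1 higher and 2 lower. Of 13 genes for fatty acids and eicosanoids, 1 was listed and was lower. Of 16 genes for drugs and other foreign compounds, 2 were listed, 1 higher and 1 lower. Of 13 genes for sterols and steroids and of 8 genes without a well-defined substrate, 0 were listed. P450 genes that are not in the tables have no value here, and these counts do not say which classes are active in RCC4 cells.

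CYP27B1 (ENSG00000111012, GRCh38 chromosome 12, 57762334 to 57768986, minus strand) encodes the mitochondrial hydroxylase that turns calcidiol into calcitriol, the active hormone form of vitamin D. Its value was 131 and 187 in shControl replicates 1 and 2 and 309 and 358 in shMIRE replicates 1 and 2. Both shMIRE libraries stood above both shControl libraries, and within each group replicate 2 was the higher. The mean rose from 159 ± 39.6 to 333.5 ± 34.7 (SD, n = 2), a log2 fold change of 1.08 ± 0.25 (SE; limma adjusted p = 0.00982). The call was lost with any of 3 libraries left out: the limma adjusted p was 0.0684 without shControl replicate 1, 0.0879 without shMIRE replicate 1 and 0.115 without shMIRE replicate 2. Its fold of 2.10 lies just inside the limit of about 2 at which the tables end. The exons of CYP27B1 share 107 bases with those of METTL1 on the same strand, and how reads there were assigned is not known.

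CYP26A1 (ENSG00000095596, chromosome 10, 93073475 to 93077890, plus strand) encodes the hydroxylase that inactivates retinoic acid, and is known as a target of the retinoic acid receptors. Its value was 12 in each shControl library, and it was listed at 0 in each shMIRE library. The groups did not overlap, and neither group varied within itself, so the standard error comes from limma's prior over the other genes (adjusted p = 0.000626). A fold against a group at 0 is not defined here. The call held under each alternative that was run, with a log2 fold change from -6.92 to -1.78. Leaving out 1 library could not change the fitted -3.7, because the libraries of each group were equal, so those fits say little. Its annotated exons share 750 bases with AL358613.3, a same-strand transcript that is not in the tables.

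CYP27C1 (ENSG00000186684, chromosome 2, 127184120 to 127220078, minus strand) encodes a mitochondrial enzyme that desaturates retinol to dehydroretinol in human skin. Its value was 3 and 11 in shControl, and it was listed at 0 in both shMIRE libraries. It was the lowest of the 6 genes, and its shControl libraries differed widely between themselves. Limma called it lower (adjusted p = 0.0102), but not without shMIRE replicate 1 (0.111) or shMIRE replicate 2 (0.108), and not with quantile normalisation (0.538). Without shControl replicate 1 its fitted log2 fold change went from -2.79 to -3.58.

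CYP4F11 (ENSG00000171903, chromosome 19, 15912367 to 15934867, minus strand) encodes an enzyme of the endoplasmic reticulum that hydroxylates the ends of long-chain fatty acids and of the vitamin K side chain. Its value was 576 and 652 in shControl and 269 and 298 in shMIRE. The lowest shControl library was well above the highest shMIRE library. The mean fell from 614 ± 53.7 to 283.5 ± 20.5 (SD, n = 2), a log2 fold change of -1.11 ± 0.15 (SE; limma adjusted p = 0.00144). This call held under each alternative run, with a log2 fold change from -1.20 to -0.81. CYP4F11 made up 76.1% and 73.3% of the summed values of the 6 genes in shControl and 41.3% and 39.6% in shMIRE. Those sums were 757 and 890 in shControl and 652 and 752 in shMIRE.

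CYP1A1 (ENSG00000140465, chromosome 15, 74719542 to 74725610, minus strand) oxidises polycyclic aromatic hydrocarbons and is a textbook target of the aryl hydrocarbon receptor AHR. Its value was 30 and 17 in shControl and 74 and 96 in shMIRE. Both shMIRE libraries were above both shControl libraries. The mean rose from 23.5 ± 9.19 to 85.0 ± 15.6 (SD, n = 2), a log2 fold change of 1.85 ± 0.42 (SE; limma adjusted p = 0.00971). Leaving out shControl replicate 2 ended the call (limma adjusted p = 0.0758), as did leaving out either shMIRE library (0.0704 without replicate 1 and 0.0923 without replicate 2).

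CYP3A4 (ENSG00000160868, chromosome 7, 99756960 to 99784265, minus strand) encodes the main drug-oxidising P450 of liver and gut. Its value was 5 and 11 in shControl, and it was listed at 0 in both shMIRE libraries. Limma called it lower (adjusted p = 0.00304), but not with quantile normalisation (0.380). Of 6 hepatocyte markers, 1 was listed, the fibrinogen gene FGB, whose shControl values were 13 and 8 and whose shMIRE values were both 0. FGB moved with CYP3A4, and its part in that result was not tested. In all, 84 listed genes were at 0 in both shMIRE libraries, so this pattern is not particular to FGB and CYP3A4. Of the 100-base windows in annotated CYP3A4 transcripts, 0.494% were found exactly in another CYP-named gene, most of them in CYP3A5. For the other 5 members that share was 0.

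The 3 genes listed at 0 in shMIRE belong to a low range in which such a pattern was common. In the tables, 76 genes had a shControl mean above 0 and up to 12, the mean of CYP26A1. Of these, 28 were higher in shMIRE and 48 were lower, the 3 P450 genes included. All 48 were listed at 0 in both shMIRE libraries. Of the 48, 46 were called, in tables where 97.5% of all genes were called. On the log2(value + 1) scale the fitted change of such a gene follows from its shControl level alone, as the plot against mean level shows.

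**Figure D2:**
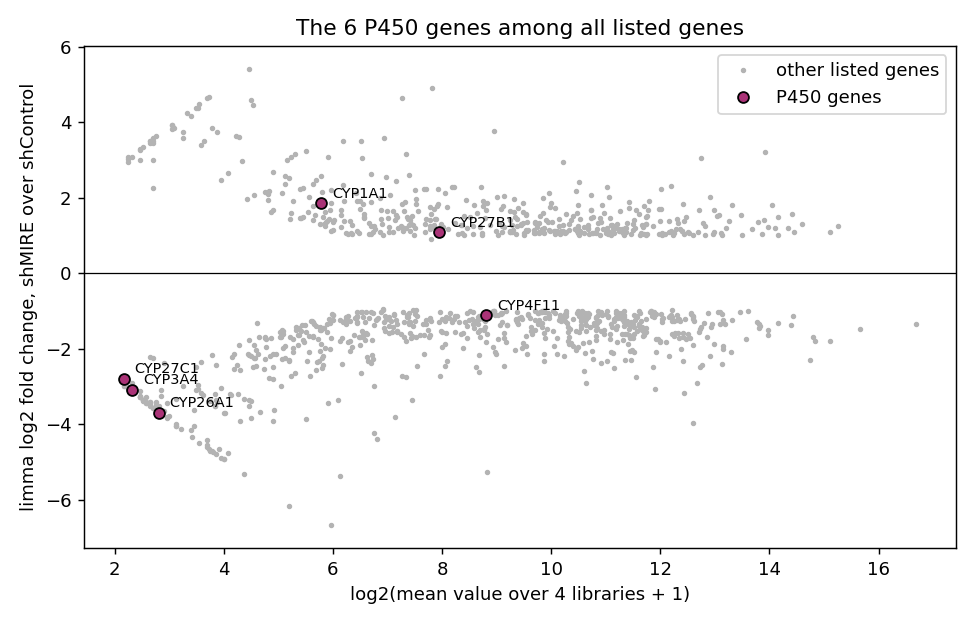
Limma log2 fold change of shMIRE over shControl (vertical axis) against log2(mean value over 4 libraries + 1) for the 1176 listed genes, in grey, with the 6 P450 genes marked. The listed genes leave a gap around a change of 0, and CYP27C1, CYP3A4 and CYP26A1 lie on the lower left edge formed by genes listed at 0 in shMIRE.

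Levels of different genes were compared as deposited value per kilobase of annotated exon. In shControl the order by mean was CYP4F11 at 152.5, CYP27B1 at 46.2, CYP1A1 at 6.84, CYP26A1 at 4.04, CYP3A4 at 2.55 and CYP27C1 at 1.56. The last 2 overlapped, since CYP3A4 ranged from 1.59 to 3.50 and CYP27C1 from 0.668 to 2.45, whereas the libraries of the other neighbours in this order did not overlap. In shMIRE the first 2 changed places. CYP27B1 stood at 89.8 and 104.1 per kilobase, CYP4F11 at 66.8 and 74.0, and CYP1A1 at 21.5 and 27.9. The ratio of CYP27B1 to CYP4F11 per kilobase was 0.266 and 0.336 in shControl and 1.34 and 1.41 in shMIRE. This ratio is taken within a library and so does not depend on scaling between libraries, and it was chosen after the values were seen. By deposited value and mean over the 4 libraries, CYP4F11 ranked 561 and CYP27C1 1170 of the 1176 listed genes.

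**Figure D3:**
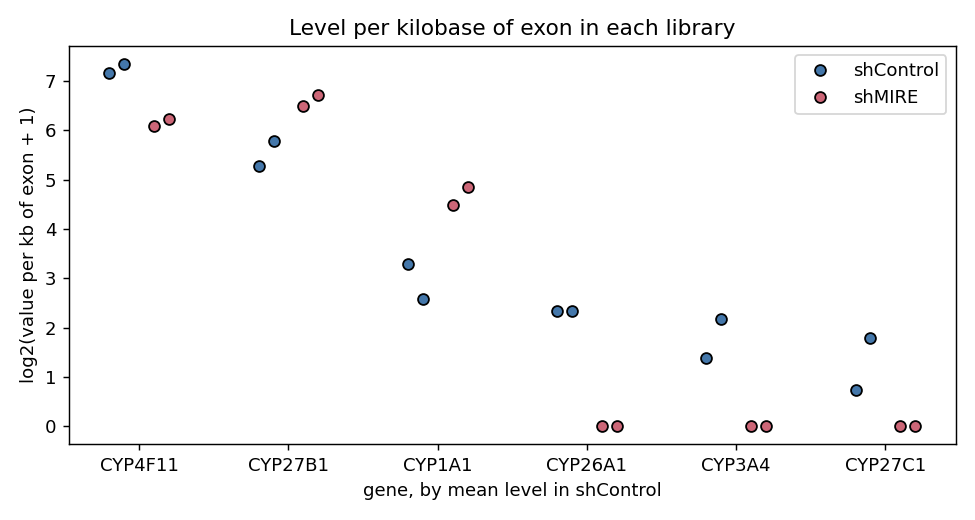
Level of each P450 gene in each library as log2(value per kilobase of exon + 1), with genes ordered by their mean in shControl (blue) and shMIRE in red. CYP4F11 lies above CYP27B1 in shControl and below it in shMIRE, and CYP26A1, CYP3A4 and CYP27C1 lie at 0 in shMIRE.

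A pair of transcription starts are shown because each belongs to a P450 gene whose inducer receptor is well known, AHR for CYP1A1 and the retinoic acid receptors for CYP26A1. Of the 6 genes, 5 matched the promoter table. The sequences are RefSeq promoter windows on GRCh38.p14, 5′ to 3′ on the strand of the gene, from 250 bases before the start to 50 after it. Capitals mark each match, on either strand, to GCGTG (the core of the AHR element), ACGTG (the core of the HIF element), TATAAA (the TATA box), CCAAT (a box bound by NF-Y), or a pair of AGTTCA half-sites with 5 bases between them (a retinoic acid element, added to the search after the values were seen). CYP1A1 lies at chr15:74725479-74725778 on the minus strand and CYP26A1 at chr10:93073643-93073942 on the plus strand, at the second of its RefSeq starts.
CYP1A1: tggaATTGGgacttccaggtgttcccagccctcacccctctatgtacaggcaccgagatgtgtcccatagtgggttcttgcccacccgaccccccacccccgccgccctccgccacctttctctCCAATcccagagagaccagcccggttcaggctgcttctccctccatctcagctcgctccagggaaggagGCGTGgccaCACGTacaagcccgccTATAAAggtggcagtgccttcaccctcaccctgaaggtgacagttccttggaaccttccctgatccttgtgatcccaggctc
CYP26A1: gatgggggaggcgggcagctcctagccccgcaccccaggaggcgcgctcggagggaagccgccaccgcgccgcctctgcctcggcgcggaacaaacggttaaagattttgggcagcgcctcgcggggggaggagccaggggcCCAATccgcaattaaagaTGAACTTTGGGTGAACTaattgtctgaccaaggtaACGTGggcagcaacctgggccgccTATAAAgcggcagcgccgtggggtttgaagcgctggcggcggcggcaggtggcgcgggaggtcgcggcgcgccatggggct

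In the CYP1A1 window, GCGTG began at position -57 from the start, ACGTG lay on the other strand at -48, TATAAA at -32, and CCAAT at -126 and, on the other strand, at -246. In the CYP26A1 window the paired AGTTCA half-sites lay on the other strand from -90, ACGTG at -55, TATAAA at -31 and CCAAT at -108. No 2 of these matches overlapped. Of 35116 RefSeq windows of this length, 36.5% held GCGTG, 21.4% ACGTG, 11.5% TATAAA and 34.6% CCAAT, and 4 windows (0.0114%) held the paired half-sites. The window at the first CYP26A1 start held ACGTG on both strands at 2 places, each a palindrome that matches on either strand. Of the remaining windows, that of CYP3A4 held TATAAA at -29, both of CYP4F11 held CCAAT, and 1 of 2 of CYP27C1 held GCGTG. These matches describe the letters in the windows and say nothing of binding.

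Genes that supply P450 enzymes or act beside them were taken from fixed lists. Of 20 redox partner and heme metabolism genes, 1 was listed: FECH, ferrochelatase, which places iron into heme. Its value was 3295 and 3115 in shControl and 1669 and 1417 in shMIRE, 2.08-fold lower (limma adjusted p = 0.000539). Of 18 genes for sensors of foreign compounds and bile acids, 1 was listed, NR1I3, the nuclear receptor CAR, with shControl values of 7 and 11 and shMIRE values of 0 (limma adjusted p = 0.00139, or 0.268 with quantile normalisation). AHR and its partner ARNT are on that list and were not among the listed genes. The related gene ARNT2 is not on that list and was looked up after the values were seen. It was among the listed genes, at 916 and 766 in shControl and 312 and 248 in shMIRE. The list of 28 phase II enzyme genes also holds oxidases and esterases such as FMO1 and CES1. Of these 28, 1 was listed, the glutathione transferase gene GSTM3, at 16 and 47 in shControl and 3 and 6 in shMIRE (limma adjusted p = 0.0178). The GSTM3 call was lost without shControl replicate 2 (0.102), either shMIRE replicate (0.167 and 0.0983 without 1 and 2), and on quantile normalisation (0.104). Its log2 fold change of -2.43 went to -3.18 without shControl replicate 1 and to -1.68 without shControl replicate 2.

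Of 19 retinoid genes outside the P450 family, 5 were listed, 1 rose and 4 fell, in tables where 59.0% of all genes were called lower. Their median log2 fold change was -1.06, against -1.16 for all listed genes. STRA6, the membrane receptor that takes up retinol, rose 6.23-fold, from 44 and 49 in shControl to 267 and 312 in shMIRE (limma adjusted p = 0.000458). RARA, retinoic acid receptor alpha, fell 2.09-fold, from 4543 and 5414 to 2482 and 2278 (limma adjusted p = 0.00062). RDH10, which oxidises retinol to retinal, fell 2.08-fold, from 1651 and 1677 to 864 and 735 (limma adjusted p = 0.000636). For these 3 genes the groups did not overlap, as for 99.0% of all listed genes. With 1 library left out, the log2 fold change ranged from 2.50 to 2.72 for STRA6. It ranged from -1.19 to -0.93 for RARA and from -1.18 to -0.94 for RDH10. LRAT, which esterifies retinol for storage, fell 2.35-fold, from 193 and 160 to 71 and 79 (limma adjusted p = 0.00692), but its adjusted p was 0.0832 without shControl replicate 1, 0.0585 without shControl replicate 2 and 0.0576 without shMIRE replicate 1.

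In the vitamin D pathway, 2 of 10 genes were listed, 1 higher and 1 lower. VDR, the nuclear receptor for calcitriol, rose 2.93-fold, from 421 and 339 in shControl to 1052 and 1177 in shMIRE (limma adjusted p = 0.000514), so the genes for the activating enzyme and for the receptor were both higher. LRP2, megalin, which takes up calcidiol with its binding protein in the proximal tubule, was at 6 and 18 in shControl and listed at 0 in shMIRE (limma adjusted p = 0.00364). That call was lost without shMIRE replicate 1 (0.0679), without shMIRE replicate 2 (0.0659) and on quantile normalisation (0.178). Its log2 fold change of -3.53 went to -4.25 without shControl replicate 1 and to -2.81 without shControl replicate 2. Of 11 proximal tubule markers, 2 were listed: MIOX, the inositol oxygenase of kidney, was higher, at 575 and 772 in shControl and 1562 and 1324 in shMIRE, and LRP2 was lower. MIOX thus moved in the same direction as CYP27B1 and LRP2 in the other. The part of either marker in the CYP27B1 result was not tested.

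Of 19 eicosanoid genes, 3 were listed, 2 higher and 1 lower, in tables where 38.5% of all genes were called higher. Their median log2 fold change, 1.46, is the value of ALOX5AP, against -1.16 for all listed genes. PTGS1, cyclooxygenase 1, which starts prostaglandin synthesis, rose 3.00-fold, from 223 and 176 in shControl to 575 and 620 in shMIRE (limma adjusted p = 0.00083). ALOX5AP, which presents arachidonic acid to lipoxygenase for leukotriene synthesis, rose 2.80-fold, from 49 and 50 to 127 and 150 (limma adjusted p = 0.00479), though its adjusted p was 0.0617 and 0.0590 without shControl replicate 1 or 2. PTGES, a prostaglandin E synthase, was at 7 in each shControl library and listed at 0 in shMIRE (limma adjusted p = 0.00132, or 0.420 with quantile normalisation). Of 26 steroid and sterol genes without the P450 genes themselves, 2 were listed. Both fell, in tables where 59.0% of all genes were called lower. EBP, the sterol isomerase, fell 4.60-fold, from 7376 and 7706 to 1735 and 1547 (limma adjusted p = 0.000103). Of the 13 P450 genes for sterols and steroids, CYP51A1 among them, 0 were listed.

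**Figure D4:**
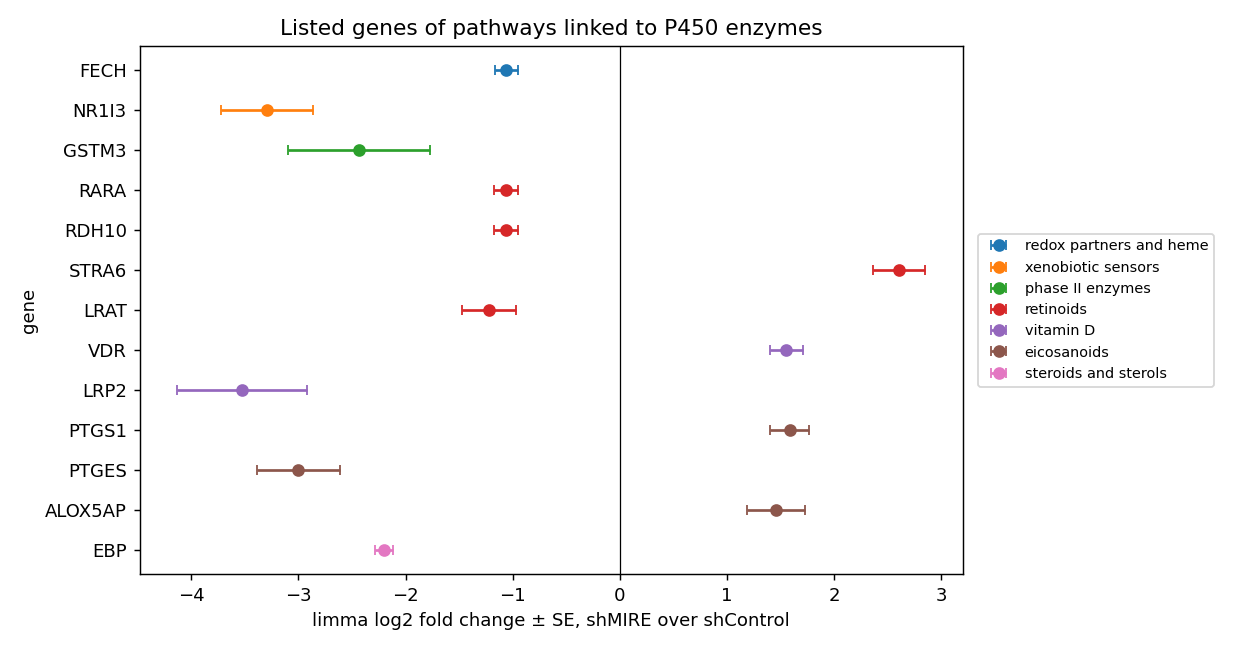
Limma log2 fold change with its SE (horizontal axis, shMIRE over shControl, on the log2(value + 1) scale) for 13 listed genes of pathways linked to P450 enzymes, coloured by list. STRA6, VDR, PTGS1 and ALOX5AP lie above 0 and the other 9 genes lie below it.

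For each P450 gene up to 2 genes with the most similar pattern were found among listed genes with a mean value of at least 5. Likeness was measured by the distance between log2(value + 1) profiles centred on the gene's own mean, over 4 libraries. With so few libraries this likeness is a description of direction, size and replicate spread. For CYP27B1 they were HOXC5 (distance 0.0527, with values of 40, 57, 91 and 110 in shControl replicates 1 and 2 and shMIRE replicates 1 and 2) and LHX1 (0.0987). For CYP4F11 they were PPP1R3D (0.058, with values of 700, 778, 331 and 376 in the same order) and L1CAM (0.0799). CYP1A1 was nearest to MEF2C (0.223) and SORL1 (0.286), and CYP26A1 to CRISPLD1 (0.209). Among the genes searched, NCAM1 was the nearest to both CYP3A4 (0.324) and CYP27C1 (0.475), followed by SSTR2 (0.347) and SLC6A15 (0.489) respectively. CYP3A4 and CYP27C1 themselves lie below the mean required, so genes as low as they are were left out. FLT1, 1 such gene, had the same values as CYP27C1: 3 and 11 in shControl and 0 in both shMIRE libraries.

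The sign of the change of each of the 6 genes was the same under both other scalings. Scaling each library to equal sums of the listed values moved the median change of the listed genes up by 0.30 on the log2 scale, and quantile normalisation moved it up by 0.32. With equal sums, the log2 fold change was 1.38 for CYP27B1, 2.15 for CYP1A1 and -0.81 for CYP4F11, and 6 of 6 genes were called with limma. With quantile normalisation 4 of 6 were called. CYP26A1 then stood at -1.78, CYP27C1 at -0.26 ± 0.39 and CYP3A4 at -0.36 ± 0.36 (SE), so the direction of the last 2 lay within 1 SE of no change.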

How the data were processed

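RNA from 4 RCC4 libraries, 2 per group, was analysed from tables with 1 value per gene. The deposited values are a score: whole numbers per gene for 1176 genes that look scaled and rounded by the authors, by a method not given in the sources used here. Build hg38, DESeq2 1.20.0, featureCounts 1.5.0-p3 and HISAT2 2.0.5 were used per the submitters' processing notes, with no role given. Symbols were matched for 1175 IDs, and coordinates and exon lengths come from GENCODE 29 (GRCh38).

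Groups were compared with limma 3.58.1 (R 4.3.3, intensity trend, no covariates) on log2(value + 1), which understates changes of low genes, for genes with a mean above 1 (all 1176, the 6 P450 genes included), with Benjamini-Hochberg adjustment over all of them. Folds are ratios of group means. Alternatives changed the scaling, trend, filter, pseudocount, block, threshold and libraries. Equally numbered libraries did not deviate together (correlation 0.0321), so numbers were not taken as pairs. By rule, the genes to name were all P450 genes, all listed members of the fixed lists, and the 2 nearest patterns of each P450 gene; some are not reported here. Members and lists were chosen with earlier results of these data known.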

Additional observations from a re-analysis of the deposited data

How the results depend on the processing

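Of 57 refits of single P450 genes, 47 left the call as it was, 10 lost it, and 0 turned the sign. These leave out the fit without a filter, which is the same fit because each listed gene passes the filter, and the stricter threshold. With quantile normalisation the log2 fold change was -0.26 for CYP27C1 and -0.36 for CYP3A4, below the threshold for a call, and at an adjusted p under 0.01 CYP27C1 (-2.79) was not called. Leaving out 1 library assumes that the remaining one varies as the other group does, and 3 to 5 P450 genes and 827 to 900 listed genes were then called, with 3 P450 genes without either shMIRE library. The log2 fold change ranged from 1.46 to 2.24 for CYP1A1, from 0.83 to 1.34 for CYP27B1 and from -3.58 to -2.79 for CYP27C1. Without 1 shControl library the spread of a gene at 0 in shMIRE comes from 2 zeros, so its p says little. With the replicate number as a block, 6 P450 genes and 1175 listed genes were called, and no P450 gene changed its call. With a mean above 5, CYP27C1 and CYP3A4 were not tested and the other 4 were called. CYP27C1 also fell under the filter without shControl replicate 2. Of the 15 other listed genes of the lists, 8 lost their call in at least 1 alternative. The cause of these losses was not tested. Depth limits are unknown without library totals.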

Other observations

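Other enzyme and transporter families that handle the same kinds of molecule were looked up by symbol after the P450 values were seen. Of 9 such families, 3 had listed genes. Among organic anion transporters, SLCO4C1, a kidney carrier of steroid conjugates and drugs, fell 2.19-fold, from 9232 and 7861 in shControl to 3657 and 4150 in shMIRE (limma adjusted p = 0.000533). SLCO2B1, an uptake carrier of sulfated steroids, fell 3.57-fold, from 692 and 702 to 191 and 199 (limma adjusted p = 0.000238). AKR1D1, the aldo-keto reductase of bile acid synthesis, had shMIRE values of 15 and 26 and was listed at 0 in both shControl libraries (limma adjusted p = 0.000626). The third family, the glutathione transferases, held GSTM3. All 4 genes were called, as were 97.5% of the listed genes.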
